A study of Gallus gallus with 4 samples.

Results

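NF-kappaB is a family of transcription factors that cells hold ready in the cytoplasm and release when microbes, cytokines or injury are sensed. This account follows 10 of its genes in the trachea of chickens that breathed hydrogen sulfide, a toxic gas of poultry houses. All 10 were chosen by name, with earlier results of these data known. All 10 were found among the 26296 genes of the deposited table. They are 4 DNA-binding subunits (NFKB1, NFKB2, REL and RELB), 5 inhibitors (NFKBIA, NFKBIE, NFKBIZ, TNFAIP3 and TNIP1) and the receptor adaptor MYD88. As background, mostly known from mammals, the IkB proteins hold subunit dimers inactive until kinases mark them for destruction. The freed dimers then switch on many defence genes, among them those of their own inhibitors, so the inhibitor transcripts are often read as a trace of recent pathway activity. Airway epithelium, resident immune cells and endothelium all use the pathway.

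RNA of whole trachea was sequenced from birds 42 days old. The exposed group (2 libraries, called hydrogen sulfide replicates 1 and 2) was kept in a chamber with hydrogen sulfide, held between 3.5 and 4.5 mg/kg during weeks 0 to 3 and between 19.5 and 20.5 mg/kg during weeks 4 to 6. The control group (2 libraries) was kept in another chamber without added gas, so gas and chamber cannot be told apart. The labels give neither strain nor sex, nor the number of birds behind a library, and p-values measure only the spread between these libraries. In bulk tissue, fewer cells of a type and less RNA per cell cannot be told apart.

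The libraries held from 16899066 to 22706119 counted reads, and both exposed libraries were deeper than both controls. Reads of W chromosome genes, which hens carry and cocks lack, stood at 473 and 490 CPM (counts scaled to 1000000 reads) in hydrogen sulfide replicate 1 and control replicate 2, against 147 and 143 in hydrogen sulfide replicate 2 and control replicate 1. Each group thus held 1 library of each kind. None of the 9 members found in the chicken reference table (all but RELB) lies on a sex chromosome. Marker genes of ciliated, mucous and basal epithelium, cartilage, muscle, endothelium and immune cells were present, and none of those listed in the table was at 0 in every library. Control replicate 1 differed in make-up: its 8 cartilage markers summed to 5920 CPM after TMM scaling, against 17400 to 28800 CPM in the other libraries. The 7 skeletal muscle markers summed to 6680 and 3280 CPM in exposed trachea and to 6990 and 1120 CPM in control trachea. In a principal component analysis of all tested genes, the largest axis (42.7% of the variance) set the 2 controls apart. Control replicate 1 lay at 61.86 and control replicate 2 at -53.68, with the exposed libraries between them at -3.77 and -4.40. Only the third axis (26.9%) held both exposed libraries on one side and both controls on the other.

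None of the 10 genes differed between exposed and control trachea at an adjusted p under 0.05 in edgeR's quasi-likelihood test, and 0 of the 16545 tested genes did (0%), with a smallest adjusted p of 0.571. At an unadjusted p under 0.05 edgeR counted 924 genes. DESeq2 called 0 of the 10, against 0.8% of the 16501 genes it gave an adjusted p. All 5 inhibitors and 3 of the 4 subunits had a fitted level above control, 9 of 10 members with MYD88, where 51.6% of tested genes lay above 0. The median log2 fold change was 0.42 for the inhibitors and 0.16 for the subunits, beside 0.01 for all tested genes. Without overlap between the groups, 3 members (NFKB2, NFKBIE and NFKBIZ) were higher in exposed trachea, against 15.3% of tested genes. None was lower, where 17.2% of tested genes were. Only NFKBIZ reached an unadjusted edgeR p under 0.05 in the higher direction, a mark that 2.12% of tested genes reached. The smallest p that exact permutation of 4 such libraries allows for any one value is 0.333.

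**Figure D1:**
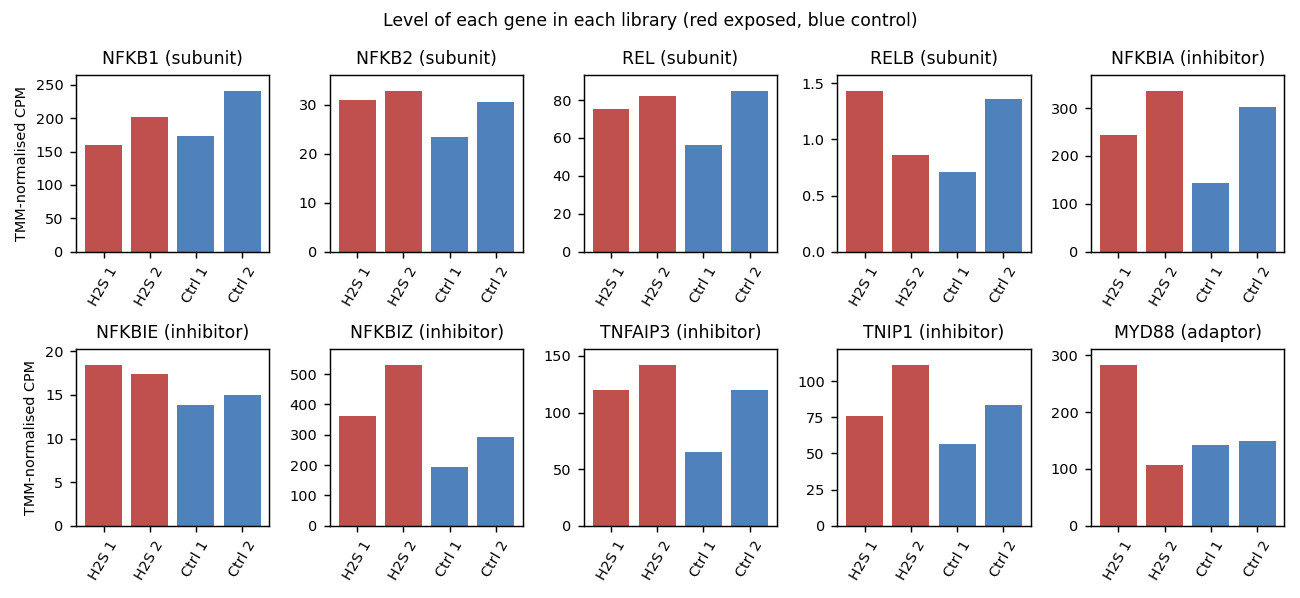
Level of each of the 10 genes in TMM-normalised CPM (vertical axes, each from 0 and each on its own scale) in the 2 exposed libraries (red) and the 2 control libraries (blue). Control replicate 1 is the lowest library for 8 of the 10 genes, among them all 5 inhibitors, a count whose share over all tested genes was not computed. For MYD88 hydrogen sulfide replicate 1 stands alone at 282.9 CPM.

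NFKBIZ encodes IkB-zeta, an inducible nuclear member of the IkB family that in mammals restrains some NF-kappaB targets and is needed for the induction of others. It stood at 362.0 and 530.4 CPM in exposed trachea and at 194.5 and 292.9 CPM in control trachea. Both exposed libraries lay above both controls, and the lower exposed value was 1.24 times the higher control value. The fitted fold was 1.83 (log2 fold change 0.87, SE 0.31, 95% interval 0.06 to 1.69). The unadjusted edgeR p-value of 0.0403 became 0.866 after adjustment over all tested genes. Its interval was the single one of the 10 that did not include 0. The log2 fold change ran from 0.57 to 1.19 when each library was left out in turn.

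The classical cytoplasmic inhibitors gave smaller differences. NFKBIA, the IkB-alpha gene and the best known feedback target of the pathway, stood at 244.7 and 336.6 CPM in exposed trachea against 143.9 and 302.1 CPM in control trachea. The groups overlapped, because control replicate 2 lay above hydrogen sulfide replicate 1, and the controls differed from each other 2.10-fold. The log2 fold change was 0.38 (SE 0.41, 95% interval -0.68 to 1.45; edgeR adjusted p = 0.999), and it was -0.05 without control replicate 1 and 1.0 without control replicate 2. NFKBIE, the IkB-epsilon gene, stood at 18.4 and 17.4 CPM against 13.9 and 15.0 CPM. Here the groups did not overlap and libraries of a group lay close together, within 1.06-fold in the exposed group and 1.08-fold in control trachea. Its log2 fold change was 0.31 (SE 0.20, 95% interval -0.20 to 0.83; edgeR adjusted p = 0.999), and leaving out any library kept it between 0.26 and 0.36.

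TNFAIP3 and TNIP1 act further upstream. TNFAIP3 encodes A20, a ubiquitin-editing enzyme that shuts down signalling complexes, and TNIP1 encodes a ubiquitin-binding partner of A20. TNFAIP3 stood at 120.1 and 142.0 CPM in exposed trachea against 64.9 and 120.3 CPM in control trachea. Control replicate 2 and hydrogen sulfide replicate 1 were nearly level, and control replicate 1 was far below the other 3 libraries. Its log2 fold change was 0.50 (SE 0.33, 95% interval -0.36 to 1.37; edgeR adjusted p = 0.999), and it was 0.13 without control replicate 1 and 1.0 without control replicate 2. TNIP1 stood at 75.9 and 111.2 CPM against 56.7 and 83.4 CPM, again with overlap between control replicate 2 and hydrogen sulfide replicate 1. Its log2 fold change was 0.42 (SE 0.29, 95% interval -0.34 to 1.18; edgeR adjusted p = 0.999), with values from 0.12 to 0.71 over the libraries left out.

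**Figure D2:**
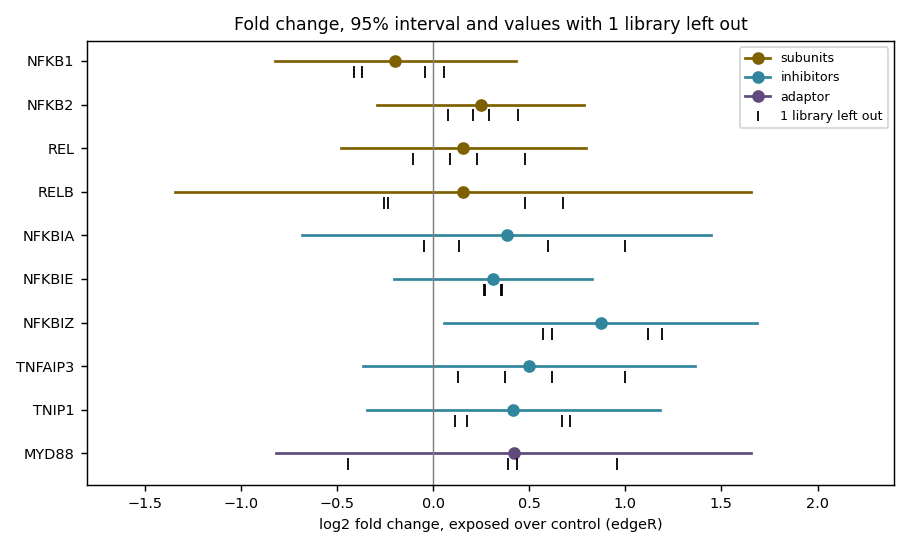
Log2 fold change, exposed over control, of each gene in the edgeR fit (dots), with its 95% interval (lines), and the same value with each of the 4 libraries left out (ticks below). The 5 inhibitors lie right of 0, from 0.31 to 0.87, and all intervals but that of NFKBIZ cross 0.

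The subunit genes were closer to the control level. NFKB1, which encodes the precursor of the p50 subunit of the canonical dimers, stood at 160.4 and 201.2 CPM in exposed trachea and at 172.8 and 241.5 CPM in control trachea. It was the single member with a fitted level below control (log2 fold change -0.20, SE 0.24, 95% interval -0.82 to 0.43; edgeR adjusted p = 0.999), and the sign turned without control replicate 2, to 0.05. REL, which encodes c-Rel, a subunit known for its role in lymphocytes, stood at 75.0 and 82.3 CPM against 56.1 and 85.0 CPM. Both exposed values lay between the 2 controls, and the log2 fold change of 0.16 (SE 0.24, 95% interval -0.48 to 0.80) became -0.10 without control replicate 1.

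NFKB2 and RELB form the dimer of the alternative pathway, which in mammals works in lymphoid organ development and B cell maturation. NFKB2 stood at 31.0 and 32.9 CPM in exposed trachea against 23.3 and 30.4 CPM in control trachea. The groups did not overlap, but hydrogen sulfide replicate 1 and control replicate 2 differed only 1.02-fold (log2 fold change 0.25, SE 0.20, 95% interval -0.29 to 0.79; edgeR adjusted p = 0.999). RELB was scarce, with 31 and 19 reads in exposed trachea and 13 and 23 in control trachea. At that depth its 95% interval ran from -1.34 to 1.65 around a log2 fold change of 0.16, and the sign turned without hydrogen sulfide replicate 1 (-0.26) and without control replicate 1 (-0.24), so no difference was detectable. RELB was not found in the chicken reference table, so its overlaps with other genes are not known here. In that table the spans of NFKB1, NFKB2, REL and NFKBIZ overlap those of other genes. The use of strand in the counting is not known here, so reads of these partners cannot be told apart from theirs.

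MYD88 carries the signal of Toll-like and interleukin 1 receptors towards the kinases that free NF-kappaB. It stood at 282.9 and 107.4 CPM in exposed trachea and at 142.7 and 149.3 CPM in control trachea. The exposed libraries lay on either side of both controls and differed from each other 2.64-fold, the widest gap within a group among the 10 genes. The log2 fold change of 0.42 (SE 0.47, 95% interval -0.82 to 1.65; edgeR adjusted p = 0.999) became -0.44 when hydrogen sulfide replicate 1 was left out and 0.95 when replicate 2 was.

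Inhibitors and subunits were then set against each other within each library, as the number of inhibitor reads per subunit read. Depth and scaling cancel in this ratio, but transcript length does not, so it is compared only between libraries. Per NFKB1 read, all 5 inhibitors were more abundant in both exposed libraries than in both controls. NFKBIZ gave 2.26 and 2.64 reads per NFKB1 read in exposed trachea against 1.13 and 1.21 in control trachea. For NFKBIA the ratios were 1.52 and 1.67 against 0.83 and 1.25, and for TNFAIP3 0.75 and 0.71 against 0.38 and 0.50. TNIP1 gave 0.47 and 0.55 against 0.33 and 0.35, while NFKBIE gave 0.115 and 0.086 against 0.080 and 0.062. NFKB1 itself had a fitted level below control, with overlap between the groups. Of all tested genes, 21.1% were likewise higher per NFKB1 read with no overlap. The subunits REL and NFKB2 were among these too, at 0.47 and 0.41 REL reads per NFKB1 read against 0.32 and 0.35, and at 0.19 and 0.16 NFKB2 reads against 0.14 and 0.13.

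Against the other subunits fewer inhibitors stood apart. Per REL read, 3 of 5 were higher with no overlap (NFKBIZ, TNFAIP3 and TNIP1), where 5.19% of tested genes were. NFKBIZ gave 4.83 and 6.44 reads per REL read against 3.47 and 3.45, and TNFAIP3 1.60 and 1.72 against 1.16 and 1.42. TNIP1 gave 1.012 and 1.35 against 1.011 and 0.981, so its lower exposed library was level with the higher control. Per NFKB2 read only NFKBIZ was higher with no overlap, at 11.7 and 16.1 against 8.33 and 9.62, where 4.5% of tested genes were. Per RELB read none of the 5 was, where 2.86% of tested genes were. Of the 20 pairs, 9 were thus higher with no overlap, 11 overlapped and 0 were lower. Of tested genes, 5.32% were lower with no overlap per NFKB1 read and 34.4% per NFKB2 read. The share was 18.9% per REL read and 8.09% per RELB read. In all 20 the mean of the exposed libraries was above that of the controls, a count whose share over all genes was not computed. It was from 1.03 times (NFKBIE per NFKB2 read) to 2.09 times (NFKBIZ per NFKB1 read) the control mean. Per RELB read, hydrogen sulfide replicate 1 was the lowest library for NFKBIA, TNFAIP3 and TNIP1. The pairs share genes and are not independent of each other.

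**Figure D3:**
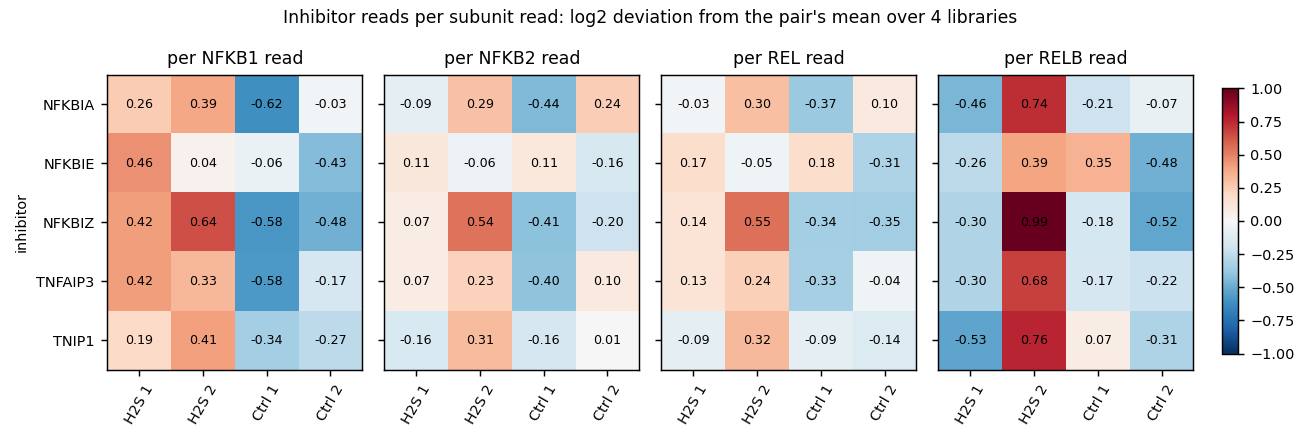
Reads of each inhibitor per read of each subunit, as the log2 deviation from the pair's geometric mean over the 4 libraries (red above, blue below; the number in each cell is that deviation). Against NFKB1 all 5 inhibitors are higher in both exposed libraries than in both controls, while against RELB hydrogen sulfide replicate 2 is the highest library for all 5, closely followed by control replicate 1 for NFKBIE (20.2 and 19.5 reads per RELB read).

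As a single value per library, the mean log2 CPM of the 5 inhibitors minus that of the 4 subunits was 1.98 and 2.35 in exposed trachea and 1.71 and 1.78 in control trachea. The exposed mean was 0.42 above the control mean, where the SD was 0.27 in exposed and 0.05 in control libraries (0.19 pooled). Each SD rests on 2 libraries. RELB, with 13 to 31 reads per library, weighs as much in the subunit mean as each other subunit, so its noise enters these values. With NFKB1 and REL alone as subunits the difference was 0.525. No test is attached to it, since the members were chosen with results of these libraries known. Compared within libraries alike in W-linked reads, the difference was 0.20 between hydrogen sulfide replicate 1 and control replicate 2 and 0.64 between hydrogen sulfide replicate 2 and control replicate 1. Gene by gene, 5 of 10 members were higher in the exposed library of the first pair and 9 of 10 in that of the second. The share over all tested genes was not computed for either pair, so these counts only describe the members. NFKBIA was 0.81 times the control in the first pair and 2.34 times in the second, TNFAIP3 0.999 and 2.19 times, and TNIP1 0.91 and 1.96 times. NFKBIZ was 1.24 and 2.73 times the control and NFKBIE 1.23 and 1.25 times, both above it in each pair. MYD88 ran the other way, at 1.90 times the control in the first pair and 0.752 times in the second. Control replicate 1, the low library of the second pair, is also the one with few cartilage transcripts, and the part of tissue make-up in these differences was not tested.

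Lymphocyte markers mostly lay below control, while the fitted levels of the subunits REL, NFKB2 and RELB lay slightly above it. Of the B cell and plasma cell markers, 13 of 14 lay below control and 9 of 14 had an unadjusted edgeR p under 0.05 in the lower direction, beside 3.46% of tested genes. They summed to 2760 and 2330 CPM in exposed trachea and to 13100 and 11400 CPM in control trachea. Most of each sum came from IGLL1 (1370 and 1095 against 6670 and 6254 CPM) and IGJ (955 and 760 against 5840 and 4338 CPM). The median log2 fold change of the 14 markers was -0.905. T cell and natural killer cell markers summed to 244 and 222 CPM against 299 and 386 CPM, with 17 of 18 below control. Macrophage, dendritic cell and heterophil markers summed to 397 and 301 CPM against 542 and 435 CPM, with 13 of 17 below. Of all 16545 tested genes, 8004 lay below control. Lower with no overlap were 12 of the 14, 11 of the 18 and 10 of the 17 markers, beside 17.2% of tested genes. Higher with no overlap were 0, 0 and 1 of them. Over the same libraries REL, NFKB2 and RELB had log2 fold changes of 0.16, 0.25 and 0.16, none past the test. The values of REL and RELB overlapped between the groups, and their signs turned with a library left out. Mucous and secretory markers lay above control in 6 of 6 cases, where 51.6% of tested genes did. They summed to 2890 and 2200 CPM against 1860 and 1380 CPM. Most of each sum was PIGR (2046 and 1466 against 1564 and 1022 CPM), which overlapped between the groups. Without overlap 5 of the 6 were higher, beside 15.3% of tested genes. An unadjusted edgeR p under 0.05 in the higher direction was reached by 5 of the 6, beside 2.12% of tested genes. The median log2 fold change of the 6 markers was 1.25, and none passed edgeR's adjusted threshold. Markers of cartilage (8 of 8), skeletal muscle (7 of 7) and endothelium (9 of 10) also had fitted levels above control. Of these, 3 endothelial markers and none of cartilage or muscle were higher with no overlap. Cartilage markers summed highest in control replicate 2 (28800 CPM) and muscle markers in control replicate 1 (6990 CPM). Ciliated markers lay above control in 7 of 11 cases and basal markers in 3 of 8. All 10 cell cycle markers lay below control with no overlap, where 17.2% of tested genes did. The part of any cell population in the NF-kappaB values was not tested.

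The rest of the pathway was read from lists of textbook genes. Of 38 tested genes between receptors and NF-kappaB (adaptors, TRAF proteins, kinases and further IkB and Rel genes), 16 lay above and 22 below control, with a median log2 fold change of -0.01. Without overlap 6 were higher and 6 lower, beside 15.3% and 17.2% of tested genes. Those with the smallest p included TRAF6, a ubiquitin ligase downstream of MYD88 (146.5 and 126.7 CPM against 99.3 and 105.4; log2 fold change 0.42, SE 0.16), and TRAF5 (-0.39, SE 0.17). RELA, the classical partner of p50, was named after its values were seen and stood at 9.77 and 11.1 CPM against 11.2 and 11.3 CPM (log2 fold change -0.11, SE 0.23). No gene of this list passed (edgeR adjusted p = 0.894 for TRAF6).

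Further negative regulators outside the 10 gave a median log2 fold change of 0.11 over 16 tested genes, 11 above and 5 below control. ZC3H12A, which encodes an RNase that degrades cytokine transcripts, stood at 334.3 and 306.0 CPM in exposed trachea against 199.4 and 162.9 CPM in control trachea. The groups were well apart, with a log2 fold change of 0.82 (SE 0.18; edgeR adjusted p = 0.728). NLRC3, an inhibitory receptor of lymphocytes and other cells, lay lower at 25.1 and 18.6 CPM against 33.9 and 45.9 CPM, a log2 fold change of -0.87 (SE 0.26; edgeR adjusted p = 0.827). DUSP1, an inducible phosphatase of stress kinases, stood at 340.7 and 328.5 CPM against 191.3 and 284.4 CPM, a log2 fold change of 0.49 (SE 0.24; edgeR adjusted p = 0.974).

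**Figure D4:**
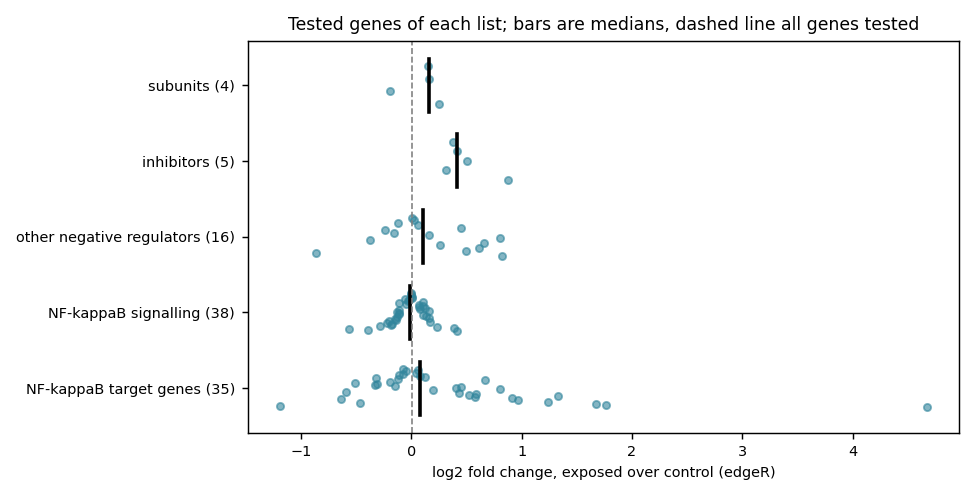
Log2 fold change, exposed over control, of every tested gene in the subunits, the inhibitors and 3 lists of other pathway genes (dots; number of genes in brackets), with each list's median (bar) and that of all tested genes (dashed line). The inhibitors' median of 0.42 lies to the right, the signalling list is centred on 0, and the target genes are spread from IRF4 at -1.19 to CCL20 at 4.67.

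Among 35 tested target genes of NF-kappaB, 20 lay above and 15 below control, with a median log2 fold change of 0.08. Without overlap 13 were higher and 5 lower, beside 15.3% and 17.2% of tested genes. An unadjusted edgeR p under 0.05 was reached by 4 in the higher direction and 2 in the lower, beside 2.12% and 3.46% of tested genes. The chemokine CCL20 stood at 56.8 and 116.1 CPM against 3.00 and 3.78 CPM, and the endothelial adhesion molecule SELE at 58.5 and 134.9 CPM against 27.7 and 29.1 CPM. Both were called higher by DESeq2 (adjusted p = 5.62e-20 and 0.0215) and not by edgeR (adjusted p = 0.571 and 0.755). IRF4, a transcription factor of lymphocytes that is also in the B cell list, stood at 47.2 and 58.9 CPM against 108.5 and 133.5 CPM (DESeq2 adjusted p = 0.0159, edgeR adjusted p = 0.571).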

How the data were processed

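Total RNA of trachea was sequenced. The authors deposited whole read counts per gene, 1 column per library, not normalized. HISAT2 is the aligner that the submitters' processing notes list. The sources used here do not state the counting program, build, annotation or strand setting. Counts were filtered (filterByExpr), scaled by TMM and tested with edgeR 4.0.16 in R 4.3.3 (quasi-likelihood, two-sided, no covariate, Benjamini-Hochberg over 16545 genes). The common coefficient of variation between libraries was 33.1%. Standard errors (SE) were derived from the log2 fold change and its F statistic. Intervals are 95% with edgeR's degrees of freedom. Log2 CPM used a prior count of 2. Alternatives were DESeq2 1.42.0, limma-voom 3.58.1, edgeR's exact test, other scalings, no filter, each library left out and the replicate block. The fits were tested on simulated data. No pair of libraries was a copy (chi-square over its degrees of freedom between 64.7 and 112). Members and lists were chosen with earlier results of these data known. Apart from RELA and from markers that made up most of a list's sum, named genes are all members and the 3 with the smallest edgeR p in each pathway list. An item that this rule takes is not reported here. The lists named 111 further pathway genes, of which 94 were found in the table and 89 tested. The chicken reference table (GRCg7b) served for names, gene neighbours and sex chromosomes only.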

Additional observations from a re-analysis of the deposited data

How the results depend on the processing

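No member was called under any of the 11 alternative fits. The count of all genes called was 132 with DESeq2 and 79 with edgeR's exact test, and 0 in the others. Members with an unadjusted edgeR p under 0.05 numbered 2 with the replicate block (NFKBIZ and TNIP1). The share of all tested genes under that fit was not computed. The replicate numbers do not pair the libraries (correlation of deviations -0.00197), and the block changed no call. Of 110 log2 fold changes of members under alternatives, 104 kept their sign. The 6 that turned, in 5 members, all came with a library left out. The other alternatives refitted the same libraries, where a sign can hardly turn. With a library left out, the ranges of the members that turned were -0.41 to 0.0547 for NFKB1, -0.10 to 0.48 for REL, -0.26 to 0.68 for RELB, -0.0469 to 1.0 for NFKBIA and -0.44 to 0.95 for MYD88. The inhibitor minus subunit difference was 0.69 from summed CPM, 0.33 without NFKBIZ and 0.525 with NFKB1 and REL alone as subunits. It was 0.20 and 0.64 within libraries of high and of low W-linked reads. The last 2 values and the next were chosen after seeing the data. The 9 inhibitor and subunit pairs without overlap became 10 to 18 with a library left out. With 3 libraries any gene overlaps less easily, and the share over all tested genes was not computed, so these counts do not show robustness. Scaled by library totals alone, the median of all genes moved to -0.07 and 2 members, not 3, were higher with no overlap. RELB is limited by its depth, and it was not found in the chicken reference table. The causes were not tested.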
